A study of Mus musculus with 2 samples.

Results

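The molecules described here are RNA molecules that lay outside every segmented cell. They come from 2 brain sections imaged by MERFISH, a method that reads single RNA molecules in place as fluorescent codes over repeated rounds of imaging. Each decoded molecule has a position and either the cell whose outline contains it or the mark of no cell, and the molecules with the mark of no cell were taken. Among the molecules of the 500 panel genes, 649281 of 3491636 in the control section and 3024782 of 16461956 in the KO section lay outside. Molecules decoded as 1 of 50 blank codes, which belong to no gene and count false decoding, were kept apart. Of the 16674 control blanks, 2511 lay outside, as did 16906 of the 82590 KO blanks.

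Both sections were coronal, 10 µm thick and from an E16.5 mouse embryo whose head had been frozen whole. The control was *Sst-Cre/tdTomato*, from *Sst*-Cre mice crossed to a *Rosa26* CAG-tdTomato reporter line. The KO was *Sst-Cre/tdTomato/Dnmt1 loxP2*, which carries the same Cre and reporter alleles together with a loxP-flanked *Dnmt1*. Cre is made from the *Sst* gene. By design, *Dnmt1*, the gene of a DNA methyltransferase, is thus deleted in somatostatin cells and kept in other cells. *Dnmt1* was not on the Vizgen Pan Neuro panel, so the genotype could not be checked in these data. Each group is a single section, so nothing was replicated and no test was run. Intervals are exact binomial (Clopper-Pearson) 95% intervals that cover counting error only and treat molecules as independent, although many share a cell. Run and genotype cannot be told apart.

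An outline drawn from nuclear and cell stains rarely takes in the whole of a neural cell. Many messenger RNAs leave the cell body for axons, dendrites or the long fibres of radial glia, the progenitors that span the wall of the embryonic brain. Other transcripts stay close to or inside the nucleus. The share outside therefore describes a gene within a given segmentation, and each gene was compared with all panel molecules of the same section, which had been decoded and segmented together.

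The share of panel molecules outside cells was nearly equal in the sections, at 18.6% in the control (interval 18.55% to 18.64%) and 18.4% in the KO (18.36% to 18.39%), although the KO section held more molecules. The sections had similar numbers of cells, 108533 and 110004, but 49.1% of control cells and 7.96% of KO cells held fewer than 20 panel molecules. When molecules of these shallow cells were counted as outside, the share was 33.5% in the control and 18.7% in the KO. The nearly equal shares therefore depend on how shallow cells are treated. The cut was the same in both sections and not matched to their depth.

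The share followed the density of cells. In 50 µm bins with 1 to 4 cell centres, 50.3% of control and 41.3% of KO panel molecules lay outside. In bins with 15 to 19 centres the shares were 19.8% and 18.1%, and in bins with 25 or more they were 12.3% and 16.4%. From bins with 20 to 24 centres to those with 25 or more, the control share still went down, from 15.6%, whereas the KO share was 16.4% in both classes. On the map of the sections, bins over 50% lined tissue edges and the borders of empty spaces. The central 80% of control bins spanned 9.43% to 33.2% and of KO bins 11.1% to 33.7%.

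**Figure D1:**
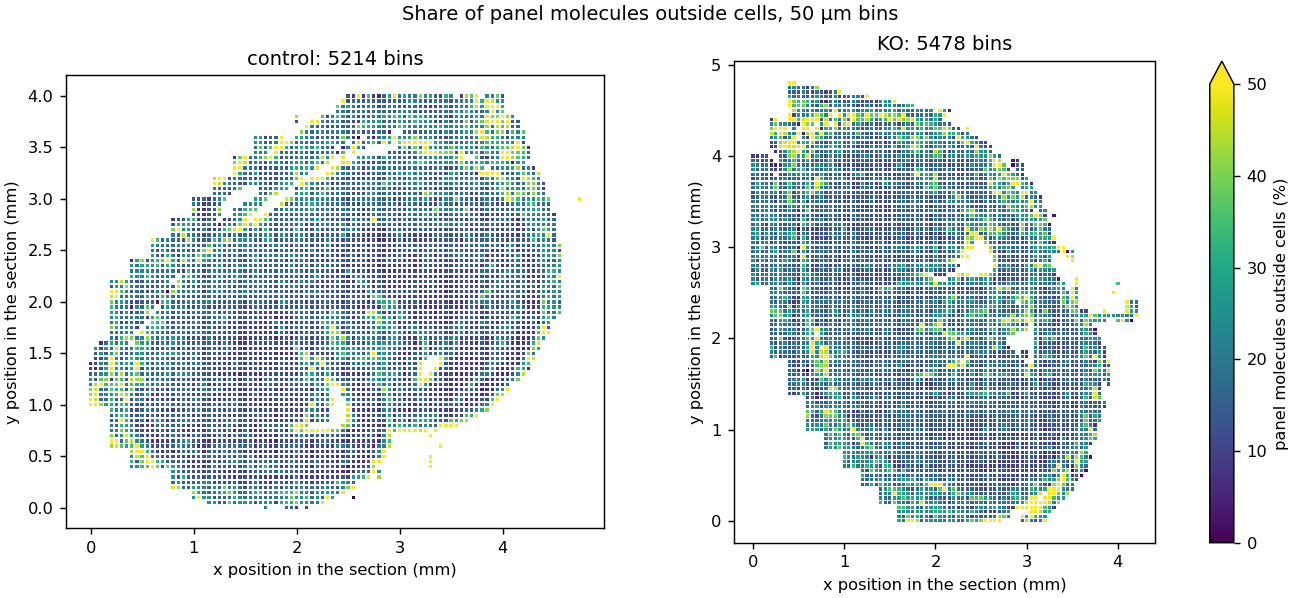
Share of panel molecules outside cells in 50 µm bins of the control (5214 bins) and KO (5478 bins) sections, for bins with at least 20 panel molecules and at least 1 cell centre. Axes are positions in the section in mm and colour is the share in percent, capped at 50. High shares line the edges and borders of empty spaces in both sections.

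The share also changed through the 7 imaging planes. In the KO it went from 19.9% in plane 0 to 14.1% in plane 6. In the control it was 18.9% in plane 0, highest in plane 1 at 20.5%, and 14.1% in plane 6. For panel molecules outside cells, the median distance in the section plane to the nearest cell centre was 6.99 µm in the control and 6.47 µm in the KO, against 4.66 µm and 4.44 µm for inside molecules to the centre of their own cell. With 7923 and 8006 cells per mm2, any position in the tissue had a cell centre nearby, so these distances do not show that the molecules belonged to cells.

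Blank codes lay on opposite sides of the panel in the sections. Their pooled share outside was 15.1% in the control (14.5% to 15.6%), below the panel, and 20.5% in the KO (20.2% to 20.7%), above it. On the log2 scale the outside-to-inside ratio of blanks divided by that of the panel was -0.37 for the control (-0.43 to -0.30) and 0.19 for the KO (0.17 to 0.22). In the control, 0 of 50 blank codes had an interval above the panel share and 13 had one below it. In the KO, 25 were above and 3 below. Blanks made up 0.385% of all outside molecules in the control and 0.556% in the KO, against 0.496% and 0.486% of inside molecules. In the last plane the control blanks were at 0.19 on the log2 scale, with a share of 15.8% (13.6% to 18.2%) whose interval held the panel's 14.1%.

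**Figure D2:**
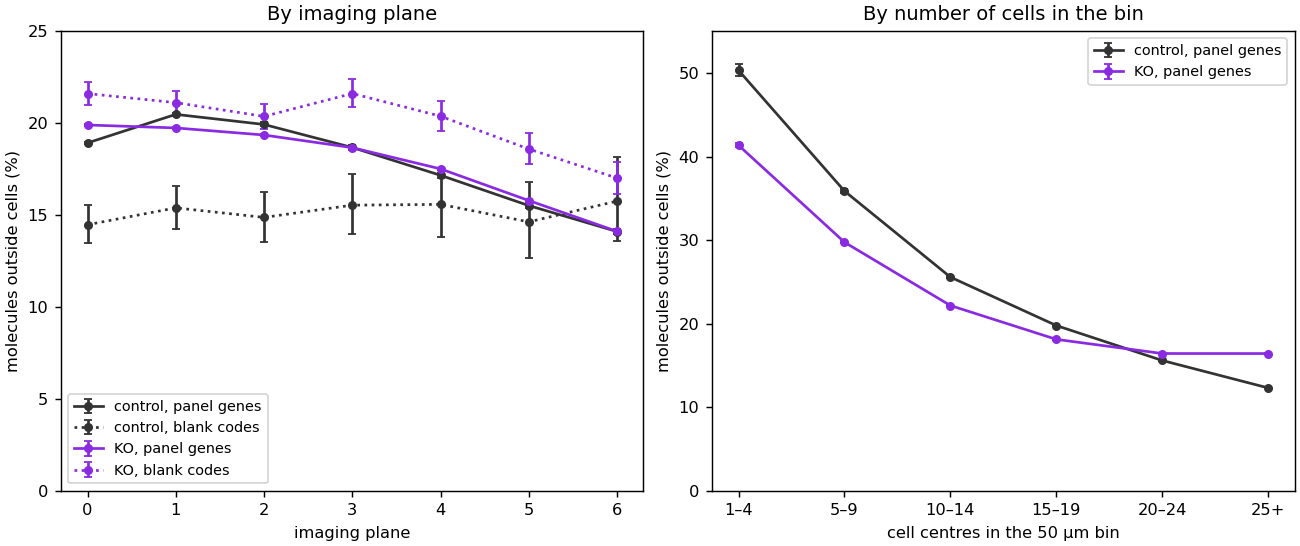
Share of molecules outside cells by imaging plane (left, panel genes as solid and blank codes as dotted lines) and by number of cell centres in the 50 µm bin (right, panel genes), in percent. Points are single sections and bars are exact binomial 95% intervals, mostly smaller than the points. Panel shares were 14.1% in plane 6 of both sections, and shares were highest in bins with few cells.

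To compare genes, the number of molecules outside divided by the number inside was taken for each gene and divided by the same ratio of all panel molecules in the section. The result, the relative ratio, is given on the log2 scale, where 0 is the panel. A gene was called over the panel in a section if the relative ratio was at least 1.3 and the interval of its share lay wholly above the panel share, and under it if the ratio was at most 1/1.3 with the interval wholly below. Of the 500 genes, 475 had at least 200 molecules in each section and were compared. The other 25 were under 200 molecules in the control. Many genes were no more frequent than false decoding can be. Among the 500, 189 in the control and 155 in the KO had no more molecules than the most frequent blank code (968 and 4024). The minimum of 200 was also below the median blank code (287.5 and 1488).

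In the control, 39 genes were over (8.21% of those compared) and 139 under (29.3%). In the KO, 48 were over (10.1%) and 59 under (12.4%). In both sections, 21 genes were over (4.42%) and 51 under (10.7%). None of the 36 blank codes with as many molecules was called in both sections, in either direction. As 0 of these codes were over in the control and 1 was under in the KO, at most 1 could be called in both. Their absence from both lists therefore gives no rate of false calls for the genes. Within sections, 12 of the 36 blank codes (33.3%) were under in the control and 7 (19.4%) over in the KO. These shares were above those of the genes in the same direction. The relative ratios of the sections were correlated across the 475 genes (Pearson's r = 0.71, Spearman's rho = 0.69), and 358 genes were on the same side of the panel in both. Genes are not independent replicates, and the sections share the probes and the segmentation software. The balance of over and under depended on the reference. A few abundant genes weigh on the panel total, with 23.7% of control and 16.9% of KO panel molecules from the 3 most abundant genes, and the median gene was at -0.18 in the control and -0.03 in the KO. Relative to the median gene in place of the panel, an alternative added after seeing the data, 75 genes were over and 86 under in the control and 57 over and 53 under in the KO.

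**Figure D3:**
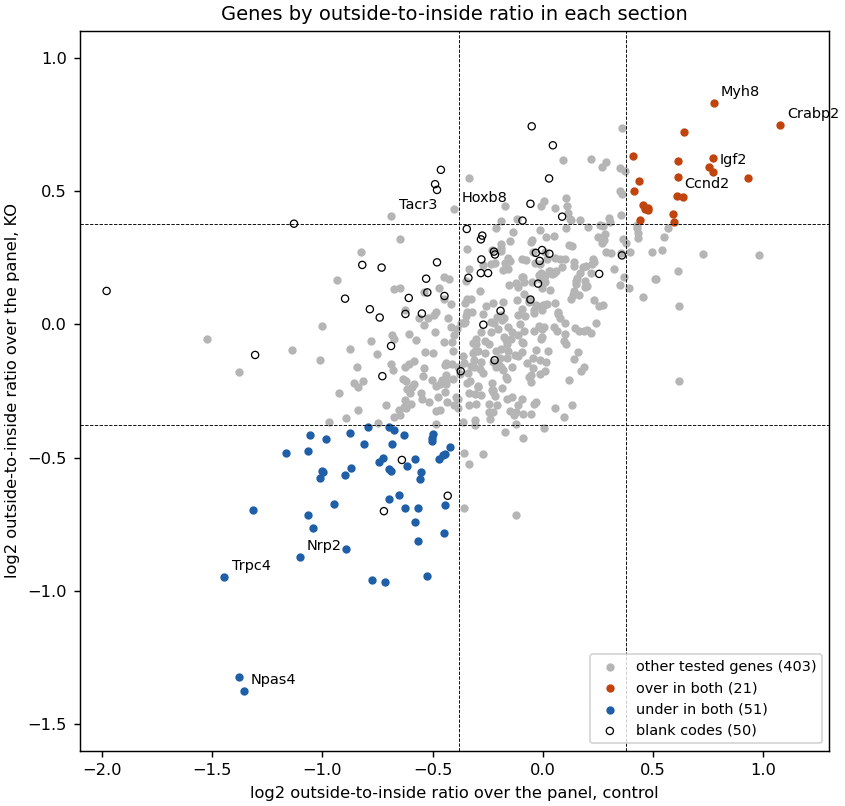
Log2 relative ratio of each gene in the control (x axis) and KO (y axis) sections, with the 21 genes over in both in orange, the 51 under in both in blue and 403 other compared genes in grey. Open circles are the 50 blank codes and dashed lines mark the 1.3-fold threshold. *Npas4*, *Gpr52* and *Trpc4* are lowest among genes under in both and *Myh8* and *Crabp2* highest among those over.

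Among the genes over in both sections, the gene with the largest lesser value was *Myh8*, which encodes a myosin heavy chain of developing skeletal muscle. Its share outside was 28.1% in the control (27.0% to 29.2%) and 28.6% in the KO (27.9% to 29.2%). *Igf2* and *Igfbp5* belong to the insulin-like growth factor system, as a secreted growth factor and a secreted protein that binds it. The share of *Igf2* was 28.0% in the control (27.8% to 28.2%) and 25.1% in the KO (25.0% to 25.2%). That of *Igfbp5* was 25.9% and 25.6%. These 2 genes were over the panel, with log2 relative ratios of 0.77 and 0.57 for *Igf2* and 0.61 and 0.61 for *Igfbp5*. The receptor gene *Igf1r* was not, with -0.39 in the control, where it was called under, and -0.02 in the KO.

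*Crabp2* and *Crabp1* encode proteins that bind retinoic acid in the cell, and *Aldh1a1* encodes an enzyme that makes it. *Crabp2* had 32.5% outside in the control (31.0% to 33.9%) and 27.4% in the KO (26.8% to 28.1%). *Crabp1* had 23.9% and 23.3%. *Aldh1a1* had 30.4% (27.0% to 33.9%) and 24.8% (23.1% to 26.5%). The control shares of *Crabp2* and *Aldh1a1* were above their KO shares beyond counting error. After standardising for position (against panel molecules at the same places), none of these 3 genes was over in both sections, with log2 ratios of 0.47 and 0.28 for *Crabp2*, 0.37 and 0.36 for *Crabp1*, and 0.08 and 0.38 for *Aldh1a1*.

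*Ccnd2* encodes cyclin D2, which drives the cell cycle of progenitors, and its mRNA is known to be carried along radial glial fibres to their basal endfeet. It contributed the most outside molecules of any gene in both sections, 89604 in the control and 222706 in the KO. These were 13.8% of all outside panel molecules in the control and 7.36% in the KO, against 9.05% and 5.27% of inside molecules. Its share outside was 25.8% in the control and 23.9% in the KO, a log2 relative ratio of 0.61 and 0.48. *Igf2* gave 9.12% and 5.68% of outside molecules, and these 2 genes made up more of the outside than of the inside molecules in both sections.

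The remaining leading genes over in both were *Shisa3*, whose protein restrains Wnt and FGF receptors in the endoplasmic reticulum, *Creb3l1*, a transcription factor held in the endoplasmic reticulum membrane, *Crym*, which encodes a thyroid hormone-binding protein, and *Lmx1a*, a transcription factor of the roof plate and of midbrain dopamine progenitors. The share of *Shisa3* was 26.3% in the control and 27.1% in the KO, and that of *Creb3l1* 28.0% and 25.8%. *Crym* and *Lmx1a* had 27.8% and 25.9% outside in the control. In the KO their shares were 25.3% and 24.8%. Both were sparse, with 874 and 845 control and 3515 and 2809 KO molecules, and so was *Aldh1a1*, with 695 and 2560, all fewer than the most frequent blank code had (968 and 4024). Near the threshold, *Rerg* was called with log2 relative ratios of 0.59 and 0.39, and *Cemip* was not with 0.37 and 0.57.

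Among the genes under in both, the lowest by this order were *Npas4*, a transcription factor induced by neuronal activity, and *Gpr52*, an orphan G protein-coupled receptor. *Npas4* had 8.19% outside in the control (6.53% to 10.1%) and 7.97% in the KO (7.23% to 8.77%). *Gpr52* had 8.08% (6.57% to 9.79%) and 8.25% (7.68% to 8.85%). The log2 relative ratios of both lay between -1.38 and -1.32. In the control they had 952 and 1164 molecules, near the 968 of the most frequent blank code. In the KO they had 4854 and 8628, above the 4024 of the most frequent blank. These are totals, whereas the low ratios rest on the smaller numbers outside, which were not set against blank codes. With the blank level subtracted, the lesser value was -2.29 for *Npas4* and -1.98 for *Gpr52*. The low shares thus depend on the level of false decoding. Single blank codes with at least 200 molecules in both sections ranged from -1.98 to 0.26 in the control and from -0.64 to 0.67 in the KO, so in the KO both genes were below every such blank.

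Further leading genes under in both included the channel genes *Trpc4*, a cation channel, *Kcna4*, a voltage-gated potassium channel, and *Gria4*, an AMPA-type glutamate receptor subunit. *Trpc4* had 7.74% outside in the control (7.0% to 8.54%) and 10.5% in the KO (10.1% to 10.8%). *Kcna4* had 11.0% and 11.2%, and *Gria4* 9.99% and 11.7%. These 3 genes were under the panel by about 1.7 times or more in both sections.

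The guidance and adhesion genes *Nrp2*, a co-receptor for class 3 semaphorins that steer migrating neurons and axons, and *Dscaml1*, an immunoglobulin-family adhesion molecule, were also in this group. *Nrp2* had 9.61% of 15054 control molecules outside (9.15% to 10.1%) and 10.9% of 98778 KO molecules (10.8% to 11.1%). *Dscaml1* had 8.42% (7.96% to 8.90%) and 12.2% (11.9% to 12.5%). *Dlk1*, which encodes a membrane protein related to Notch ligands, had 9.85% and 12.1%. For these 3 genes and *Trpc4* the control share was below the KO share beyond counting error. The median share over genes with at least 200 molecules was also lower in the control, at 16.8% against 18.1% in the KO. *Rxfp1*, the relaxin receptor, rested on 221 control molecules and had 11.8% (7.83% to 16.8%) and 10.4% (8.81% to 12.1%).

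Leading genes could also be set against the panel within bins of like density, as a description, since they had been chosen on the same molecules. In bins with 15 to 19 cells, *Ccnd2* had 28.0% outside in the control and 24.3% in the KO, and *Nrp2* 9.96% and 10.9%, where the panel had 19.8% and 18.1%.

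The size of the difference did change with position. For each gene, an expected share was taken from all panel molecules in the same 50 µm bins and planes. Genes over in both lay where the panel itself had high shares outside, with a median expected share of 21.3% in the control and 20.6% in the KO, while genes under in both lay where it was low, at 16.9% and 16.8%. After standardising for position, 3 genes were over in both sections (0.632%) and 30 under (6.32%). Of the 21 genes over in both, 1 (*Crym*) remained so, and of the 51 under in both, 24 remained. *Crym*, sparser than the most frequent blank code in both sections, lay close to the threshold, and with 100 µm bins its call was lost (lesser value 0.36), while 2 others of the 21 were called over in both. The over list was thus more dependent on position than the under list.

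*Aldh1a1* showed the largest such shift of the 10 leading genes over in the control. Its observed share of 30.4% there stood beside an expected 29.3%, and its standardised log2 ratio was 0.08 (-0.16 to 0.31), against 0.38 in the KO. *Myh8* had an expected share of 24.1% in the control and 22.9% in the KO, and standardised ratios of 0.30 and 0.43. *Igf2* had 0.32 and 0.17. *Ccnd2* had 0.36 and 0.37, just short of the 1.3-fold threshold, which is 0.38 on this scale. With 100 µm bins its lesser value was 0.379, just past the threshold, and it was called over in both sections. *Ccnd2* and *Igf2* are themselves part of the expected share, and their abundance draws it towards their own.

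The 3 genes over in both after standardising were *Crym*, with ratios of 0.51 and 0.38, *Peg10*, with 0.41 and 0.58, and *Dgkk*, with 0.46 and 0.49. *Peg10* is an imprinted gene derived from a retrotransposon, and *Dgkk* encodes a diacylglycerol kinase. The share of *Peg10* was 22.7% in the control and 24% in the KO, where its position gave 18.1% and 17.5%. *Sphkap*, which encodes an anchor of protein kinase A in neurons, had 0.37 and 0.57, and *Crabp1* 0.37 and 0.36. The lowest standardised genes were *Gpr52* (-1.29 and -1.21), *Npas4* (-1.18 and -1.18), *Nrp2* (-1.21 and -0.89), *Dlk1* (-1.10 and -0.76) and *Trpc4* (-1.21 and -0.75). For *Nrp2* and *Dlk1* the standardised values were further from 0 than the raw ones in both sections.

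**Figure D4:**
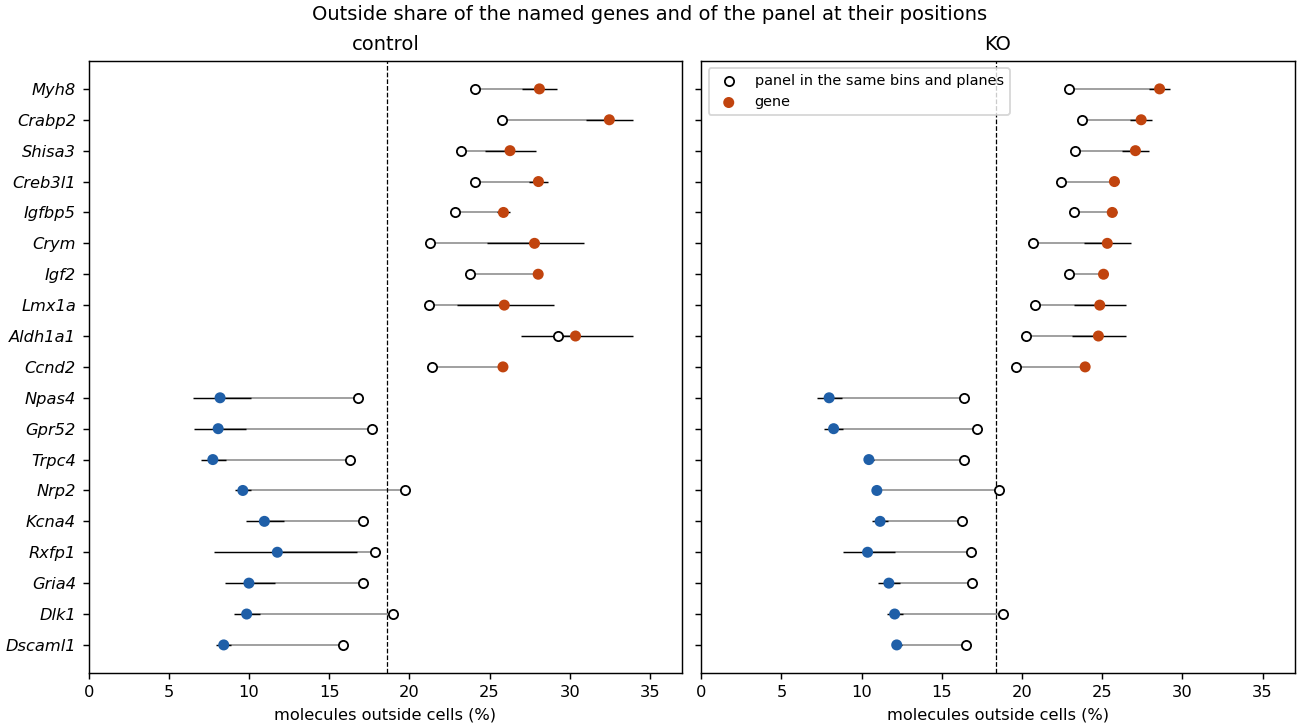
Share of molecules outside cells (percent) for the 10 leading genes over (orange) and 9 leading genes under (blue) the panel in both sections, with exact 95% intervals, beside the share of all panel molecules in the same 50 µm bins and planes (open circles). The dashed line is the panel share of the section. Open circles of the orange genes lie right of the line and those of most blue genes left of it or near it, and the widest gaps from gene to open circle are in blue genes.

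The calls were also sensitive to shallow cells and to the plane. With molecules of cells under 20 panel molecules counted as outside, 3 genes were over and 33 under in both sections. In the last plane alone, where 164 genes could be compared, 1 was over and 4 under.

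A measure that does not use the outside molecules followed the relative ratio. For inside molecules of each gene, the distance in the section plane from the centre of their own cell was divided by the cell's radius, taken as the mean of its extents in x and y divided by 2. The median over genes was 0.70 in the control and 0.69 in the KO. For genes over in both, it was 0.73 and 0.72. For genes under in both, it was 0.65 and 0.66. Molecules of genes with a low share outside thus lay nearer to the cell centre also when inside cells. Across the 475 genes, this distance and the log2 relative ratio were correlated (Pearson's r = 0.64 in the control and 0.74 in the KO), and more so after standardising for position (0.71 and 0.82). The gene values share cells, outlines and inside molecules, and this measure was added after the data had been seen.

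*Npas4*, *Gpr52* and *Rxfp1* were among the most central, although *Rxfp1*, with 221 and 1379 molecules, lay below the median blank code (287.5 and 1488). Their median distances were 0.61, 0.58 and 0.57 of the cell radius in the control and 0.57, 0.59 and 0.57 in the KO. *Dlk1* was at 0.59 in both and *Trpc4* at 0.59 and 0.62. *Ccnd2*, at 0.76 and 0.75, and *Peg10*, at 0.76 and 0.75, were among the most peripheral. Blank codes had a median of 0.72 in the control and 0.71 in the KO, close to the 0.73 and 0.72 of genes over in both. Single blank codes with at least 200 molecules reached down to 0.54 in the control, below all of these named genes, and to 0.63 in the KO. At the other end they reached 0.77 in the control and 0.75 in the KO, as peripheral as *Ccnd2*.

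**Figure D5:**
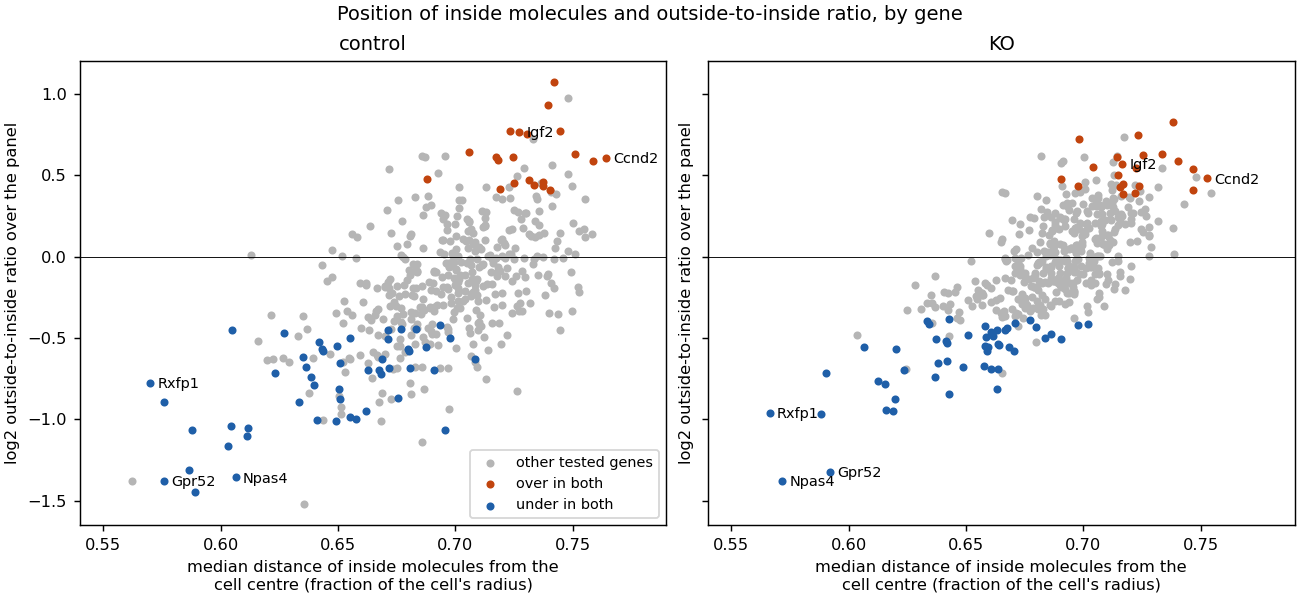
Median distance of a gene's inside molecules from the centre of their cell, as a fraction of the cell's radius (x axis), against the log2 relative ratio of outside to inside molecules (y axis) for 475 genes in each section. Genes over (orange) and under (blue) in both sections are coloured. *Npas4*, *Gpr52* and *Rxfp1* lie at 0.57 to 0.61 and low on the y axis, and *Ccnd2* at 0.75 to 0.76 and high.

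Outside molecules of most genes were found next to cells that held the same gene more often than outside molecules at large. For each gene, the share of outside molecules whose nearest cell contained at least 1 molecule of that gene was set beside the share over all outside panel molecules. For *Myh8* it was 76.3% against 2.38% in the control and 85.1% against 3.41% in the KO. For *Igf2* it was 93.6% against 39.5% and 97.0% against 36.9%. *Nrp2* was at 35.9% against 14.8% and 70.9% against 32.5%. Among genes over in both, the median ratio of these shares was 6.31 in the control and 4.45 in the KO, and among genes under in both it was 3.07 and 2.73, against 3.33 and 2.98 over all compared genes. A gene expressed in 1 region of the section raises this ratio as well as a gene whose molecules lie beside their own cell, and these were not told apart.

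*Npas4* and *Gpr52* had smaller gaps between these shares. The shares for *Npas4* were 1.28% against 0.862% in the control and 4.91% against 3.54% in the KO. For *Gpr52* they were 1.06% against 1.34% and 8.71% against 6.41%. With 78 and 94 outside molecules in the control, each of the control shares rested on 1 molecule. The median ratio of single blank codes was 0 in the control and 1.51 in the KO, with few molecules behind each.

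Without standardising for position, outside molecules of genes over in both lay further from the nearest cell centre. Their median distance over the genes was 7.36 µm in the control and 7.34 µm in the KO. For genes under in both it was 6.6 µm and 6.26 µm, and over all compared genes 6.88 µm and 6.6 µm. Across the 475 genes, this distance and the log2 relative ratio had Pearson's r of 0.56 in the control and 0.55 in the KO, and 0.18 in both after standardising for position. The number of outside panel molecules in the same 10 µm bin had a median of 15 for genes over in both in the control, against 10 for genes under and 11 overall. In the KO, with its greater depth, these were 49, 40 and 43. Gene structure was related only weakly to the relative ratio. Across the 475 genes, Pearson's r was -0.12 in the control and -0.10 in the KO for transcript length and -0.15 and -0.20 for genomic span. All 475 transcripts named by the panel had a length in the GENCODE vM39 annotation, with a median of 3033 bases for genes over in both, 4310 for genes under and 3787 overall. The genomic span of these transcripts, introns included, had a median of 15985, 59577 and 29322 bases. The middle 50% of spans ran from 6731 to 31511 bases for genes over and from 12448 to 313506 for genes under, so the groups overlapped.

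Gene families were described by the number of members called and the median log2 relative ratio, with the lowest and highest member of each list taken by the mean over both sections, beside the medians over all compared genes of -0.18 in the control and -0.03 in the KO. Of 77 G protein-coupled receptor genes compared, 0 were over and 13 under in both, with medians of -0.41 and -0.10. Their lowest member was *Gpr52* and their highest *S1pr3*, a sphingosine 1-phosphate receptor (0.35 and 0.50). Of 24 guidance and adhesion genes, 0 were over and 9 under in both, with medians of -0.46 and -0.29, from *Nrp2* to *Sema3c*, a secreted semaphorin (0.09 and 0.62). Of 17 ion channel genes, 0 were over and 5 under in both, with medians of -0.36 and -0.30, from *Trpc4* to *Trpc6* (0.32 and 0.21). The shares of these families under in both were 16.9%, 37.5% and 29.4%, beside 10.7% of all compared genes. After standardising for position, 4 receptor genes (5.19%), 5 guidance and adhesion genes (20.8%) and 5 ion channel genes (29.4%) were under in both, beside 6.32% of all compared genes, so the receptor share was then no higher than that of all genes.

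Transcription factor genes lay on both sides, with 5 over and 6 under of 50, from *Npas4* to *Creb3l1*, and medians of -0.16 and -0.04. These are 10.0% over and 12% under, beside 4.42% and 10.7% of all compared genes. After standardising 0 were over and 3 under (6%), beside 0.632% and 6.32% of all compared genes. Of 10 transmitter-gated channel genes, 0 were over and 1 under in both, with *Gria4* the lowest (-1.04 and -0.76). Of 18 neuropeptide precursor genes, 0 were over and 3 under, from *Pnoc*, the precursor of nociceptin (-1.06 and -0.48), to *Calca*, that of calcitonin and CGRP (0.30 and 0.40). Of 11 solute carriers, 0 were over and 1 under, from *Slc18a2*, the vesicular monoamine transporter (-0.58 and -0.74), to *Slc7a11*, a cystine transporter (0.54 and 0.28). Of 25 matrix and secreted genes, 2 were over and 1 under in both, from *Igfbpl1* (-1.0 and -0.55) to *Igf2*. After standardising, 0 neuropeptide and solute carrier genes were called in both. Of the matrix and secreted genes 0 were then over and 3 under (12%), beside 0.632% and 6.32% of all compared genes.

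Markers of cell classes were described in the same way. Of 8 mesenchymal or meningeal genes, 1 was over in the control and 5 in the KO, where 8.21% and 10.1% of all compared genes were over, with medians of 0.24 and 0.59. After standardising for position their medians were -0.19 and 0.08, and 0 of the 8 were over in both. *Shisa3* was the highest of them and *Hhip*, which encodes a protein that binds hedgehog, the lowest (-0.35 and 0.01). Of 15 striatal projection neuron genes, 0 were over and 5 under in both (33.3%, beside 10.7% of all compared genes), with medians of -0.47 and -0.34. After standardising, 0 were called in either direction, with medians of -0.26 and -0.13. By mean over the sections, the dopamine receptor gene *Drd1* (-1.01 and -0.58) was lowest and *Pou3f1* (-0.10 and 0.00) highest. Of 15 interneuron genes, 0 were over and 2 under in both, with medians of -0.24 and -0.22, and 0 called in both after standardising. By the same mean they ran from the transcription factor gene *Dlx1* (-0.69 and -0.55) to *Elfn1* (0.23 and 0.24), and the lowest control value of the list was -0.86.

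Genes of cortical projection neurons had lower medians in the control than in the KO. So did all compared genes (-0.18 and -0.03) and every other list except Cajal-Retzius or marginal zone genes. Deep-layer genes had medians of -0.54 and -0.13, with 1 over (*Crym*) and 1 under (*Foxp2*, at -0.56 and -0.69) of 9 in both (11.1% each, beside 4.42% and 10.7% of all compared genes). Both calls were kept after standardising with 50 µm bins, where 0.632% and 6.32% of all compared genes were called. Upper-layer genes had medians of -0.42 and -0.09 with 0 of 7 called in both, from *Sstr2* (-0.87 and -0.09) to *Lamp5* (-0.04 and 0.23). In the control, 7 deep-layer and 4 upper-layer genes were under, where 29.3% of all compared genes were. After standardising, the medians were -0.16 and 0.01 for deep-layer and -0.01 and -0.02 for upper-layer genes, nearer to the panel than before.

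Radial glia or astroglia genes had medians of -0.01 and 0.13, with 2 over and 0 under of 10 in both, where 4.42% and 10.7% of all compared genes were called. After standardising the counts turned to 0 over and 2 under (20%), where 0.632% and 6.32% of all compared genes were called. The medians were then 0.03 and -0.06. The highest was *Aldh1l1*, an enzyme of folate metabolism and astrocyte marker, with 25.6% and 23.1% outside. The lowest was *Mfge8*, which encodes a secreted bridging protein for phagocytosis, with 11.5% and 16.3%. Of 3 intermediate progenitor or cycling genes, *Ccnd2* was over in both, and *Eomes*, a transcription factor of intermediate progenitors, was lowest with 15.8% and 19.7%.

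Vascular and immune markers held both high and low members. Endothelial genes ran from *Cldn5*, a tight junction protein (-0.65 and -0.32), to *Flt1*, a VEGF receptor (0.06 and 0.20). By the mean over both sections, mural genes ran from *Cspg4* (-0.64 and -0.20) to *Acta2*, smooth muscle actin (0.45 and 0.10), although in the KO *Kcnj8*, a potassium channel gene, was the highest (0.39) and called over there. Microglia or macrophage genes ran from *Mrc1*, the mannose receptor (-0.59 and -0.22), to *C1qa*, a complement subunit (0.26 and 0.07). In these 3 classes, 0 of 13 genes were called in both sections, where 4.42% of all compared genes were over and 10.7% under. After standardising, *Mrc1* was under in both, beside 6.32% of all compared genes, and the medians were -0.32 and -0.05 for endothelial, -0.41 and -0.13 for mural and -0.57 and -0.27 for microglia or macrophage genes, beside -0.18 and -0.02 over all compared genes. Oligodendrocyte precursor genes ran from *Gpr17* (-0.87 and -0.41) to *Olig1* (0.12 and 0.30), with *Gpr17* the 1 of 5 under in both (20%) and 0 called after standardising. Cajal-Retzius or marginal zone genes ran from *Ndnf* (-0.41 and -0.20) to *Cxcl14* (0.51 and 0.17), with 0 of 4 called in both before and 1 (*Ndnf*, under, 25%) after standardising.

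Between the sections, the log2 relative ratio in the KO minus that in the control had a median of 0.14 over the 475 genes, and the central 90% of genes lay between -0.27 and 0.63. This difference equals the KO to control ratio of a gene's level outside cells minus that inside, on the log2 scale. For 96 of the 475 genes it was at least 1.3-fold upwards and for 11 at least 1.3-fold downwards. Both counts go by size alone and are taken from no difference, not from the median of 0.14. The pooled blank codes also moved upwards, by 0.56. Counting intervals of sparse genes were wide, for example -0.61 to 0.29 for *Plxnb3* in the control, with 298 molecules. Some of the counted differences can therefore be counting error. The ends of the gene differences, named after their values were seen, were *Fst*, which encodes the activin-binding protein follistatin, at 1.47, and *Hdc*, which encodes the enzyme that makes histamine, at -0.83. *Fst* had 28 of 380 molecules outside in the control (7.37%, 4.95% to 10.5%) and 340 of 1909 in the KO (17.8%, 16.1% to 19.6%). It was sparser than the most frequent blank code in each section (968 and 4024 molecules), and the pooled blanks moved the same way.

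Opposite calls were found for 2 genes, both under in the control and over in the KO, though not over in the KO after standardising for position. *Tacr3*, the receptor for neurokinin B, had 12.4% outside in the control (10.3% to 14.8%) and 23.0% in the KO (21.5% to 24.6%). *Hoxb8*, a homeobox gene that patterns the body axis, had 14.7% (12% to 17.8%) and 23.3% (21.5% to 25.1%). Relative to all panel molecules in the same compartment, *Tacr3* was lower in the KO inside cells (log2 ratio -0.64) and higher outside (0.45), and *Hoxb8* likewise (-0.54 and 0.29). Blank codes moved the same way between the sections, and both genes were sparse, with 845 and 597 control molecules against up to 968 for a blank code. The part of false decoding in these differences was not tested.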

How the data were processed

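Molecules were analysed in 1 control and 1 KO section. According to the methods, the authors relied on MERSCOPE's own decoding and segmentation. The segmentation model is not given in the sources used here. The deposited molecule lists give gene, position, plane and cell, without normalization. The deposited counts per cell were raw. For 9 columns compared, they equalled the inside molecules in the lists. The deposited DAPI and PolyT intensities were not used. Depth was 3491636 (control) and 16461956 (KO) panel molecules. Groups follow the labels.

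Analyses ran in Python 3.11.15 with pandas 2.3.3, numpy 2.4.6 and scipy 1.17.1. Plots used matplotlib 3.10.9. The ratio and call steps were tested on simulated data. Cell positions came from the deposited metadata. With 1 section per group no test was run.

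The question, genes and lists were chosen with earlier results of these data known. Named genes are the 10 genes over and the 10 under in both sections with the largest lesser value (the log2 relative ratio closer to 0), all genes with opposite calls, the 5 highest and 5 lowest after standardising for 50 µm bin and plane, and the highest and lowest member of each list. Some named genes are not reported here. Alternatives were single planes, bins with at least 5 cells, shallow cells, either side of the median x of cells, bin size, blank subtraction, minimum, fold, thinning and, added later, the reference.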

Additional observations from a re-analysis of the deposited data

Results flagged for a closer look

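Opposite sides of the panel in the control and KO sections singled out *Tacr3* and *Hoxb8*, which were called under in the control and over in the KO. The log2 relative ratio of *Tacr3* in the control was -0.69 (-1.0 to -0.39) and that in the KO 0.41 (0.28 to 0.53), a difference of 1.09. That of *Hoxb8* was -0.40 (-0.75 to -0.07) and 0.43 (0.28 to 0.58), a difference of 0.83. After standardising for position the values were -0.88 and 0.19 for *Tacr3* and -0.52 and 0.21 for *Hoxb8*. Both KO values were then short of the 1.3-fold threshold, 0.38 on this scale. The pooled blank codes were also on opposite sides, with a difference of 0.56. With 1 section per group, none of these differences was tested.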

How the results depend on the processing

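The share of panel molecules outside cells was 18.9% in the control and 19.9% in the KO in the first plane, 14.1% and 14.1% in the last plane, 18.4% and 18.2% in bins with at least 5 cells, 33.5% and 18.7% with molecules of cells under 20 panel molecules counted as outside, 18.6% and 18.1% on the lower x side of the section, and 18.6% and 18.8% on the higher x side. Except for the higher x side of the control, these lay outside the narrow counting interval of the whole section. The log2 relative ratio of blank codes was -0.46 in the control and 0.15 in the KO in the first plane, and 0.19 and 0.32 in the last, where the control turned sign. In the last plane 164 genes could be compared, and 1 was over and 4 under in both sections. Of the 475 compared genes, 3 were over and 30 under with 50 µm standardisation, and 4 and 31 with 100 µm. With shallow cells outside the numbers were 3 and 33, at a fold of 1.1 they were 68 and 135, and at a fold of 1.5 they were 6 and 14. With a minimum of 1000 molecules only 306 genes could be compared, of which 13 were over. Relative to the median gene 37 of 475 were over. The counts stayed within 1.5 times under the other settings, but not always the members. In the first plane 28 of 361 compared genes were over and 48 under, of which 12 and 30 were shared with the lists from all planes. Genes with too few molecules in that plane could not be shared. With KO molecules thinned to the control's number 23 genes were over and 57 under, with 20 and 48 shared with the unthinned lists. Of the 20 leading genes, the lesser value turned sign with shallow cells outside for *Shisa3* (-0.19), *Creb3l1* (-0.082) and *Igfbp5* (-0.16), in the last plane for *Crabp2* (-0.11), *Igfbp5* (-0.0020), *Aldh1a1* (-0.48) and *Rxfp1* (0.19), and on the higher x side for *Aldh1a1* (-0.0064). In the last plane these turns were within counting error of the panel, with 19 control molecules each for *Aldh1a1* and *Rxfp1*. Others came close to the panel: with shallow cells outside *Igf2* (2.2e-05) and *Lmx1a* (0.0043), in the first plane *Dlk1* (-0.024) and *Rxfp1* (-0.12), on the higher x side *Dlk1* (-0.15), and on the lower x side *Rxfp1* (-0.045). Of the 20 calls, 9 were kept with shallow cells outside and 4 in the last plane, while 9 were lost with either standardisation and 4 in the first plane. No paired analysis was possible because each group has 1 section. The causes of these shifts were not tested.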
